A study of Homo sapiens with 4 samples.

Results

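The 10 genes described here encode transcription factors of endothelium, namely ERG, FLI1, ETS1, ETS2, SOX7, SOX18, GATA2, LYL1, KLF2 and NR2F2. They were a hand-picked list matched by symbol to the Ensembl identifiers of the expression table with the version removed, and all 10 were found among the 62443 identifiers kept. Their mRNA was measured by RNA-Seq in EA.hy926, an immortal line made by fusing human umbilical vein endothelial cells with the lung carcinoma line A549. According to the sample labels, 2 libraries came from miR-NC cells, the negative control, and 2 from miR-187 cells. The study describes transfection of synthetic miRNA mimics, and no source used here gives their dose in these libraries. Both groups are the same line, with no allele or other agent named in the labels, and one cancer hybrid stands in for endothelium. Each value is an FPKM, the fragments assigned to a gene relative to its transcript length and to the mapped total of the library, so levels of different genes can be set side by side.

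Factors of this kind act together in endothelium. ETS proteins bind sites with a GGAA core, which are found in the regulatory regions of most genes that define the endothelial cell, and ERG and FLI1 are close relatives that bind much the same sites. SOX factors of the F group, GATA2 and LYL1 act beside them, KLF2 is induced by laminar blood flow, and NR2F2 (COUP-TFII) marks and maintains venous identity.

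With miR-187, NR2F2 and FLI1 fell, and of the 3 factors tested none rose. Of all tested genes 27.3% were called lower by the same test. The result for NR2F2 depended on how the libraries were scaled, and FLI1 reached 1 FPKM only in the miR-NC libraries. NR2F2, the one member with a level well above 1 FPKM, went from a mean of 24.7 to 13.3 FPKM, and FLI1 went from 2.15 to 0.440 FPKM. ERG, which stood beside FLI1 in the miR-NC cells, had a mean of 2.50 FPKM with miR-NC against 1.44 FPKM with miR-187 and did not pass the test. The other 7 members had means of at most about 1 FPKM in both groups and were not tested.

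The miRNA and the 3′ UTRs are shown first. The members that hold a match to the seed of miR-187-3p are ERG, which did not pass the test, and ETS1, which was too low to be tested. Whether a match bears on the level of a member was not tested. A miRNA finds its targets mainly by pairing of its bases 2 to 8, the seed, with the 3′ UTR of a mRNA. The capitals mark bases 2 to 8 in each miRNA and the bases of the match in each site. The mature human miR-187-3p (RefSeq, chr18:35904835-35904856 of GRCh38.p14, minus strand) has the same letters as the mimic in the oligo list of the study, and the miR-NC mimic is from that list.
hsa-miR-187-3p: uCGUGUCUuguguugcagccgg
miR-NC mimic: uUGUACUAcacaaaaguacug
ERG 8mer site: aacaagagaaaAGACACGAgagagactgtg
ERG 7mer-A1 site: tgaagtcggcagGACACGAttaccaatgct
ETS1 8mer site: aaagtaacttgAGACACGAcctaagttgaa

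The sites were read in the longest annotated 3′ UTR of each gene in GENCODE 29, a GRCh38 annotation. An 8mer match has the letters AGACACGA and a 7mer-A1 match has GACACGA. The 8mer of ERG lay at chr21:38382923-38382930 on the minus strand, 474 bases into a 3′ UTR of 3376 bases. Its 7mer-A1 match lay at chr21:38381118-38381124. The 8mer of ETS1 lay at chr11:128461075-128461082 on the minus strand, 1280 bases into a 3′ UTR of 3600 bases. A match of at least 7 bases was in 8 of 10 ERG isoforms with a 3′ UTR and in 3 of 5 ETS1 isoforms.

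The other 8 members held none of these matches in the 3′ UTR searched, not even the 6 bases GACACG. For FLI1 the searched length was 2279 bases and for NR2F2 it was 2641 bases. Among 19159 3′ UTRs searched the same way, 1 per gene, 4.03% held a match of at least 7 bases and 0.605% held an 8mer. These shares were not matched for length, and ETS1 and ERG had the longest searched 3′ UTRs of the members. No member held a 7-base match to bases 2 to 8 of the miR-NC mimic. A match is a run of letters and was not tested as a binding site, and no source used here gives the 3′ UTR that these cells use.

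**Figure D1:**
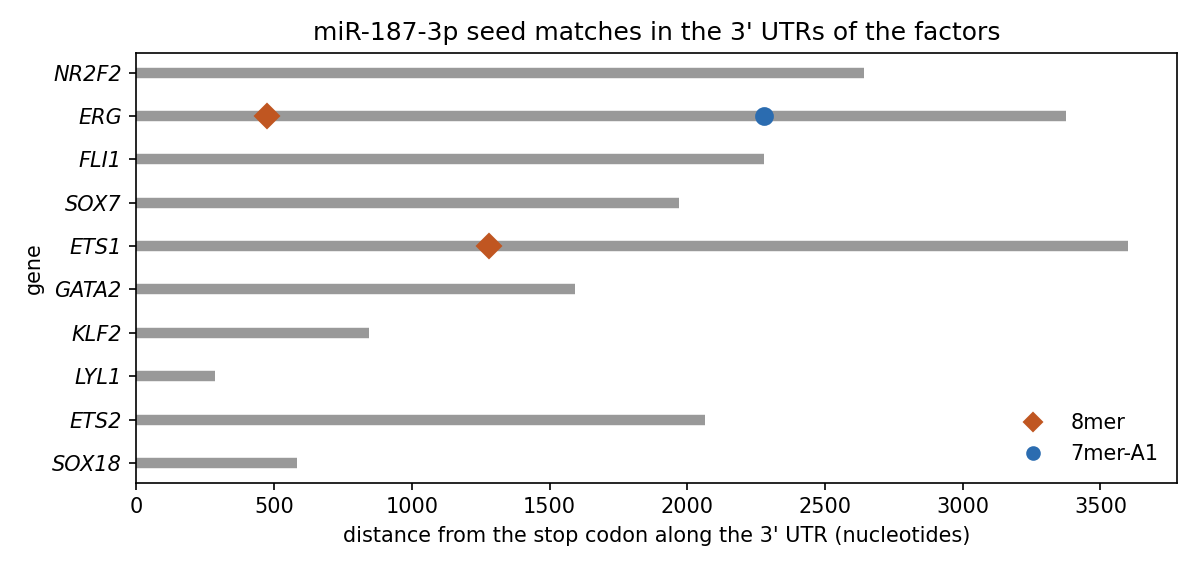
Length of the searched 3′ UTR of each factor (grey bars, in nucleotides from the stop codon) with matches to the miR-187-3p seed, diamonds for 8mers and a circle for the 7mer-A1. ERG holds 2 matches and ETS1 holds 1, and the other 8 bars, with FLI1 and NR2F2 among them, hold none.

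The libraries set a limit on how each difference is read. The FPKM of a library summed to between 736702 and 763221, and the 100 most abundant genes took 61.7 to 64.2% of it with miR-NC and 69.8 to 70.2% with miR-187. Genes at 1 FPKM or more numbered 8098 and 8868 in the miR-NC libraries and 7290 and 7189 in the miR-187 libraries. The 8196 genes that reached 1 FPKM in 2 or more libraries were compared on log2(FPKM + 1) with limma, and a gene was called when its p adjusted by Benjamini-Hochberg over all of them was under 0.05. Among tested genes the median difference was -0.39 on the log2 scale, with 2236 called lower and 122 higher. With median-of-ratios scaling, which divides each library by its median ratio to the average library, the median was 0.01 and the split became 250 lower and 362 higher. Values relative to the median gene are therefore given below as well. Depth is unknown because the files used hold no read counts.

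Endothelial markers were present in part. Of 12 on the list, 11 were analysed here, 2 were at 0 in all libraries (CLDN5 and EMCN) and 7 were tested. Of these 5 fell and 2 did not pass the test, where 27.3% of all tested genes were called lower. Among the 5 that fell, 1 reached 1 FPKM only in the miR-NC libraries, and 49.2% of such tested genes were called lower. With median-of-ratios scaling 2 of the 7 were called lower. Of 8 epithelial markers 5 were below 1 FPKM in every library, 2 of these at 0 throughout. The other 3 were keratins, which were tested and not called. Of these KRT18 was at 3039 to 3220 FPKM in the 4 libraries and KRT8 at 1075 to 1175 FPKM. KRT7 varied more, at 709 and 786 FPKM with miR-NC against 468 and 797 FPKM with miR-187. Its groups overlapped (log2 fold change -0.29, limma adjusted p = 0.217). When the fit took replicate number as a block, 1 of the 3 keratins was called lower. Of 6 blood cell markers 5 were at 0 and LAPTM5 fell (log2 fold change -1.24, limma adjusted p = 0.00158), and 9 of 9 smooth muscle and fibroblast markers were below 1 FPKM in every library.

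ETS2, SOX18, GATA2, KLF2 and LYL1 were below 1 FPKM in all 4 libraries. FLI1 crossed the line between the groups, above it in both miR-NC libraries and below it in both miR-187 libraries. SOX7 and ETS1 reached it only in miR-NC replicate 2, and NR2F2 and ERG were above it in all 4 libraries. Thus 3 and 5 members were at 1 FPKM or more in miR-NC replicates 1 and 2, against 2 in each miR-187 library.

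**Figure D2:**
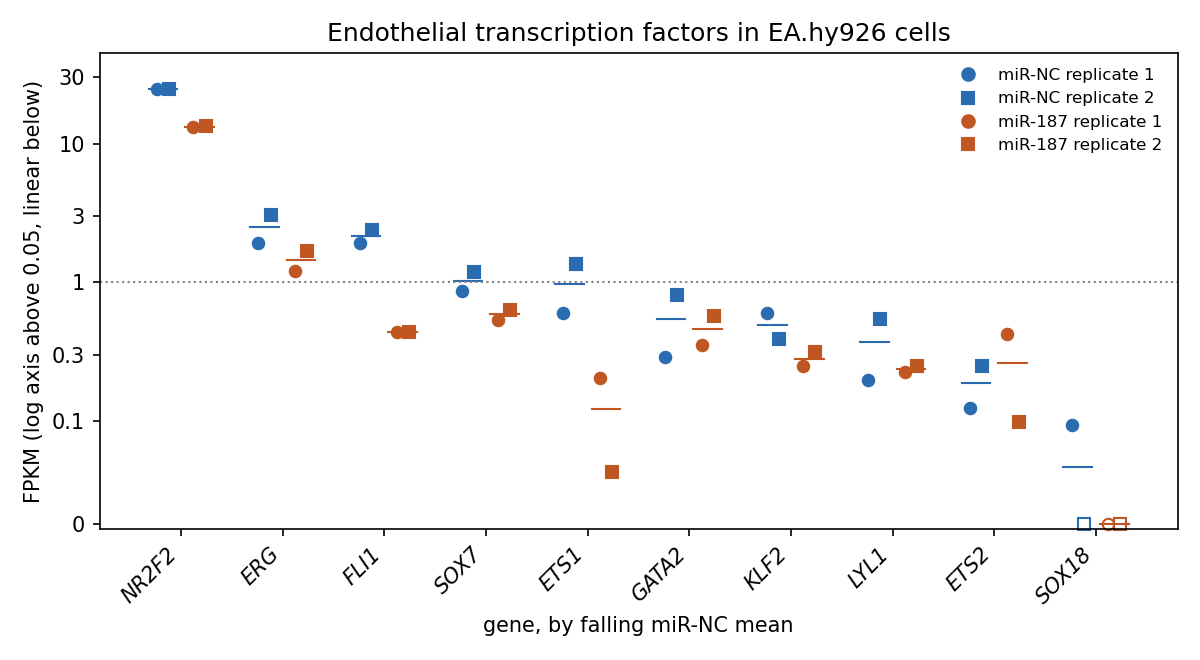
FPKM of each of the 10 factors in each library (circles replicate 1, squares replicate 2, open symbols a listed 0, short lines group means) on an axis that is logarithmic above 0.05 and linear below it, with a dotted line at 1 FPKM. NR2F2 stands alone above 10 FPKM, FLI1 crosses the line at 1 FPKM between the groups, and 5 factors lie below that line in all 4 libraries.

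On the FPKM scale the miR-NC order by mean was NR2F2, ERG, FLI1, SOX7, ETS1, GATA2, KLF2, LYL1, ETS2 and SOX18. The ranges of ERG and FLI1 overlapped in that group, as did those of each pair of neighbours from SOX7 to ETS2. With miR-187 the order was NR2F2, ERG, SOX7, GATA2, FLI1, KLF2, ETS2, LYL1, ETS1 and SOX18, and ERG was separated from all members below it. In that group the range of GATA2 overlapped those of SOX7, FLI1 and ETS2. The range of ETS2 also overlapped those of KLF2, LYL1 and ETS1, and the ranges of KLF2 and LYL1 overlapped. By mean FLI1 was at rank 3 of 10 with miR-NC and rank 5 with miR-187, and ETS1 went from rank 5 to rank 9. Ranks of members whose ranges overlapped are not separated.

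In 6 of the 10 members (ERG, FLI1, ETS1, SOX7, KLF2 and NR2F2) both miR-187 libraries were below both miR-NC libraries, in none was the order opposite, and in 4 the groups overlapped. Over all 25001 genes above 0 in any library, 37.7% had groups that did not overlap with miR-187 lower and 5.85% with miR-187 higher. Among the genes above 0 in all 4 libraries, as 9 of the members were, the lower share was 54.6%. The count of 6 is near that share and is not a result about these factors as a group. By the test, 3 of the 10 members passed the filter on low values, 2 of them were called lower, 0 were called higher and 1 was not called, where 27.3% of all tested genes were called lower and 1.49% higher.

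Of the ETS factors, FLI1, which is needed for the formation of endothelial and blood cells, had the clearest difference. Its level was 1.93 and 2.37 FPKM in the miR-NC libraries and 0.439 and 0.441 FPKM in the miR-187 libraries. The groups did not overlap, and both miR-187 values were lower than the lowest miR-NC value by more than the miR-NC libraries differed from each other. The means were 2.15 ± 0.314 and 0.440 ± 0.00112 FPKM (SD, n = 2 each), a 4.89-fold lower level. On the log2(FPKM + 1) scale, which understates changes of low genes, FLI1 fell by 1.13 (SE 0.21, 95% interval -1.59 to -0.66, limma adjusted p = 0.00314), and it stood at -0.74 relative to the median tested gene.

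FLI1 passed the filter only through the group in which it was high. Among the 634 tested genes at 1 FPKM or more in both miR-NC libraries and in neither miR-187 library, 49.2% were called lower. The call held with median-of-ratios scaling (log2 fold change -0.86, limma adjusted p = 0.0320) and, narrowly, with quantile normalization (-0.72, limma adjusted p = 0.0495). Without the filter no gene was called at all and the adjusted p of FLI1 was 0.161, and with either miR-NC library left out FLI1 had 1 library at 1 FPKM and was not tested. In rank among the genes above 0 in each library, where 100 is the highest, FLI1 went from the 67.6 and 68.6 percentiles with miR-NC to 48.1 and 47.5 with miR-187.

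ERG, a constitutive factor of endothelium that maintains junctions and quiescence, was the companion of FLI1 in the miR-NC cells but not in the miR-187 cells. Its level was 1.93 and 3.07 FPKM with miR-NC against 1.20 and 1.69 FPKM with miR-187. All 4 values were above 1 FPKM and the groups did not overlap, but the gap between them was smaller than the spread within miR-NC. The log2 fold change was -0.51 (SE 0.25, 95% interval -1.05 to 0.04, limma adjusted p = 0.139), or -0.12 relative to the median tested gene, and the adjusted p ranged from 0.0601 to 0.732 over the alternatives run. In percentile the groups overlapped, at 67.6 and 72.1 with miR-NC against 63.8 and 68.3 with miR-187.

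The ratio of FLI1 to ERG within a library does not depend on how the library was scaled. It was 0.999 and 0.773 in the miR-NC libraries and 0.367 and 0.261 in the miR-187 libraries. FLI1 was thus close to ERG in both controls and well below it in both miR-187 libraries. With 2 libraries a group the difference between the 2 genes was not tested.

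ETS1, a factor linked to angiogenesis, was low in every library. Its level was 0.598 and 1.34 FPKM with miR-NC against 0.203 and 0.0424 FPKM with miR-187. The groups did not overlap and the means, 0.971 and 0.123 FPKM, were 7.91-fold apart, but the replicates of each group were themselves more than 2-fold apart. ETS1 did not pass the filter. In the fit with no filter its log2 fold change was -0.79 with a limma adjusted p of 0.270.

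ETS2, which is widely expressed and acts downstream of Ras signalling, showed no order between the groups. Its level was 0.124 and 0.250 FPKM with miR-NC against 0.424 and 0.0978 FPKM with miR-187. The highest and the lowest value were both in miR-187 libraries. In GENCODE 29 ERG and ETS2 are neighbours on chromosome 21 with 0 coding genes between them, and so are FLI1 and ETS1 on chromosome 11. The levels of the members did not follow those pairs in the same way, since FLI1 and ETS1 were both lower in both miR-187 libraries while ETS2 overlapped where ERG did not.

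A second transcript lies across FLI1. SENCR is a long noncoding RNA of endothelial and smooth muscle cells on the opposite strand of FLI1, and its level was 7.46 and 8.77 FPKM with miR-NC against 3.76 and 3.27 FPKM with miR-187. It was above FLI1 in every library, and its log2 fold change was -1.01 (SE 0.23, limma adjusted p = 0.00734), a call that was lost with median-of-ratios scaling (-0.58, adjusted p = 0.0609) and with quantile normalization (-0.55, adjusted p = 0.0746), and without miR-187 replicate 2 (-0.93, adjusted p = 0.108). The ratio of SENCR to FLI1 was 3.86 and 3.69 with miR-NC against 8.55 and 7.41 with miR-187. No source used here gives the strand setting of the counting, so reads of the 2 genes where they overlap cannot be told apart.

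The rest of the ETS family set the members in context. Of the other 24 family genes 6 were at 0 in all libraries, 18 were below 1 FPKM in all libraries with those included, and 5 were tested, of which 2 fell, 0 rose and 3 did not pass. ETV5, a factor of FGF signalling, was at 5.73 and 8.61 FPKM with miR-NC against 2.91 and 4.25 FPKM with miR-187 (log2 fold change -0.83, limma adjusted p = 0.0322). ELF1, which also acts in blood and endothelium, was at 2.36 and 2.61 FPKM and then 1.35 and 1.10 FPKM (-0.65, limma adjusted p = 0.0488). Both calls were lost with median-of-ratios scaling (adjusted p = 0.258 and 0.270), that of ETV5 also when miR-NC replicate 2 (adjusted p = 0.157) or either miR-187 library (0.290 and 0.0788) was left out, and that of ELF1 with any 1 library left out (adjusted p from 0.0727 to 0.314). ELK3, a factor regulated by ERK, had a log2 fold change of -0.45 (limma adjusted p = 0.177). It passed under no alternative that kept all libraries, and without miR-NC replicate 1 its log2 fold change was -0.72.

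The share of the ETS family sum that FLI1 held was 7.03 and 5.99% with miR-NC against 1.95 and 1.88% with miR-187, a measure that does not depend on library scaling. For ERG that share was 7.04 and 7.75% with miR-NC against 5.32 and 7.21% with miR-187, with miR-187 replicate 2 inside the control range. The whole family summed to 27.5 and 39.6 FPKM with miR-NC against 22.5 and 23.4 FPKM with miR-187.

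**Figure D3:**
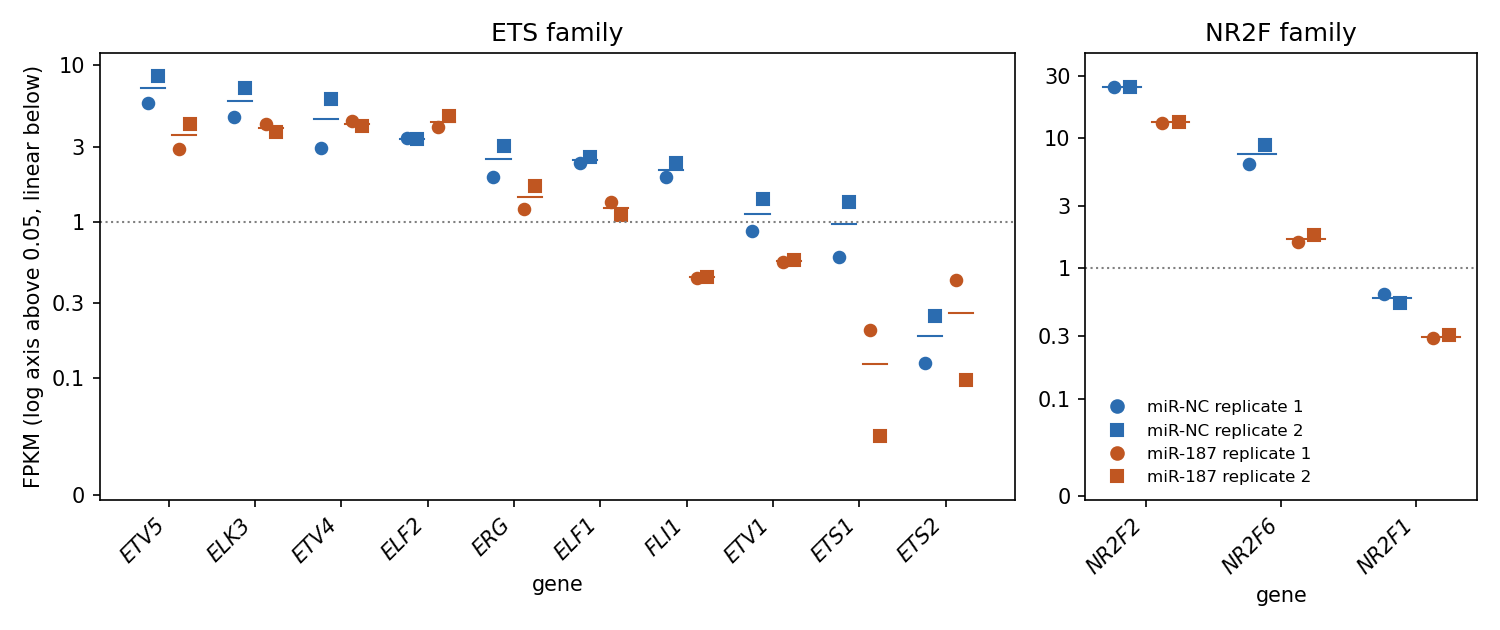
FPKM in each library (circles replicate 1, squares replicate 2, short lines group means) of ETS family genes, left, and of the 3 NR2F genes, right, on axes that are logarithmic above 0.05 and linear below it, with a dotted line at 1 FPKM. FLI1 drops from the level of ERG in both miR-187 libraries, and NR2F6 comes down further than NR2F2.

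NR2F2, the venous nuclear receptor, was the member measured best. Its level was 24.6 and 24.8 FPKM in the miR-NC libraries and 13.1 and 13.4 FPKM in the miR-187 libraries. Replicates nearly coincided, and the groups stood far apart against a spread of that size. The means were 24.7 ± 0.184 and 13.3 FPKM (n = 2 each), a 1.86-fold lower level, and the log2 fold change was -0.85 (SE 0.17, 95% interval -1.21 to -0.49, limma adjusted p = 0.00386).

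The call of NR2F2 depended on scaling. Relative to the median tested gene NR2F2 stood at -0.46, less far than FLI1. With median-of-ratios scaling the log2 fold change was -0.36 (limma adjusted p = 0.147) and with quantile normalization -0.43 (adjusted p = 0.0822), so that the direction remained and the call did not. With the 100 most abundant genes left out of the scaling it was called (-0.60, adjusted p = 0.0257), and with any 1 library left out the adjusted p was between 0.00694 and 0.0308. In percentile NR2F2 went from 91.4 and 91.1 to 88.8 and 88.7.

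**Figure D4:**
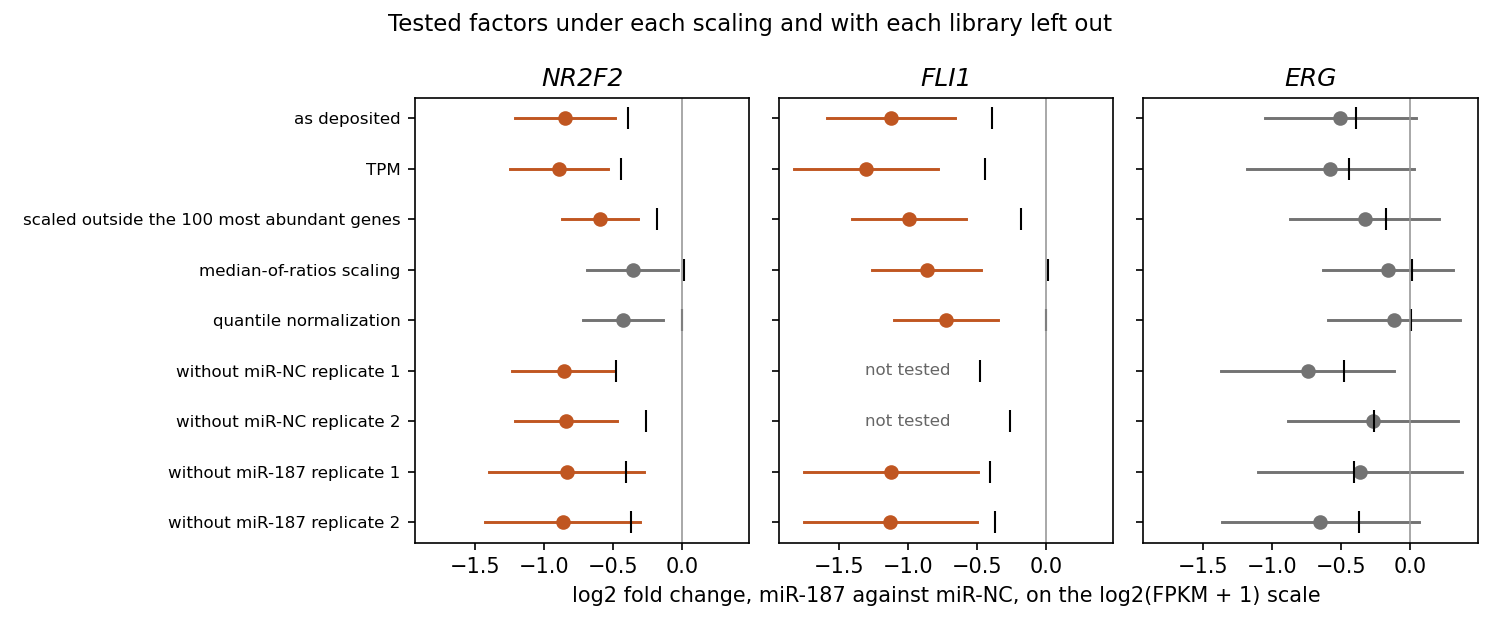
Log2 fold change of NR2F2, FLI1 and ERG, miR-187 against miR-NC, on the log2(FPKM + 1) scale (points, with 95% intervals as lines) under 5 scalings and with each library left out, coloured where the adjusted p was under 0.05, grey where it was not, with a black tick at the median of all tested genes. FLI1 is coloured in every row where it was tested, NR2F2 turns grey in the 2 rows where the tick sits near 0, and ERG is grey throughout.

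NR2F6 (EAR2), a relative of NR2F2 that represses transcription, came down further. It was at 6.31 and 8.89 FPKM with miR-NC against 1.60 and 1.79 FPKM with miR-187, a 4.49-fold lower level (log2 fold change -1.66, limma adjusted p = 0.000849). The ratio of NR2F6 to NR2F2 was 0.257 and 0.358 with miR-NC against 0.122 and 0.133 with miR-187. NR2F2 therefore made up 78.0 and 72.5% of the sum of the 3 NR2F genes with miR-NC, against 87.4 and 86.5% with miR-187, a larger share of a smaller sum. The difference between the genes NR2F6 and NR2F2 was not tested. NR2F1 was below 1 FPKM in every library.

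NR2F2-AS1, a noncoding RNA on the opposite strand that overlaps NR2F2, was at 3.12 and 2.15 FPKM with miR-NC against 2.45 and 1.53 FPKM with miR-187. The groups overlapped, and the log2 fold change was -0.29 (95% interval -0.85 to 0.28, limma adjusted p = 0.402), with the sign turned to 0.06 by median-of-ratios scaling and to 0.11 by quantile normalization. Whether it differed from NR2F2 in its response was not tested.

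Of the SOX factors of the F group, SOX7 was the one detected in all libraries. Its level was 0.866 and 1.18 FPKM with miR-NC against 0.536 and 0.636 FPKM with miR-187. The groups did not overlap and the means, 1.03 and 0.586 FPKM, were 1.75-fold apart. SOX7 did not pass the filter. In GENCODE 29 it overlaps PINX1 on the same strand, so that its reads are uncertain.

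SOX18, which acts in lymphatic and vascular development, was at 0.0934 FPKM in miR-NC replicate 1 and listed at 0 in the other 3 libraries. No fold is given for it. SOX17, the other gene of that group, was at 0.0268 FPKM in miR-NC replicate 2 and listed at 0 in the other 3 libraries. The SOX transcripts of these cells were mostly those of SOX4, a gene common in carcinoma, at 7.84 and 8.09 FPKM with miR-NC against 8.43 and 8.05 FPKM with miR-187 (log2 fold change 0.04, limma adjusted p = 0.883). Of the 17 other SOX genes, 11 were at 0 in all libraries and SOX4 was the 1 tested.

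GATA2, a zinc finger factor of blood and endothelial cells, was at 0.291 and 0.803 FPKM with miR-NC against 0.350 and 0.573 FPKM with miR-187. Both miR-187 values lay between the miR-NC values. GATA2-AS1, on the opposite strand, was at 0.786 and 0.108 FPKM and then 0.440 and 0.488 FPKM, again with the miR-187 values inside the miR-NC range. Of the 7 other GATA and FOG genes none was tested.

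LYL1, a basic helix-loop-helix factor that works with GATA2 and LMO2, was at 0.196 and 0.543 FPKM with miR-NC against 0.227 and 0.250 FPKM with miR-187, so the groups overlapped. Its close relative TAL1 was listed at 0 in all 4 libraries. Of the 12 relatives and partners of LYL1 on the list, 5 were tested and none was called, with a median log2 fold change of -0.29. The 3 with the smallest adjusted p did not share a direction. ID2 was at 3.97 and 5.01 FPKM with miR-NC against 2.73 and 2.63 FPKM with miR-187 (log2 fold change -0.57, limma adjusted p = 0.0869), and TCF4, a partner of LYL1 in binding DNA, was at 7.73 and 14.6 FPKM against 8.77 and 5.85 FPKM (-0.51, limma adjusted p = 0.168). Both were called lower only when miR-NC replicate 1 was left out (-0.71, adjusted p = 0.0378, and -0.94, adjusted p = 0.0176). ID3, which like ID2 blocks proteins of this class from binding DNA, was at 55.7 and 58.3 FPKM with miR-NC against 65.7 and 68.8 FPKM with miR-187 (log2 fold change 0.24, limma adjusted p = 0.176). It was called higher under scalings that moved the median gene towards 0, with an adjusted p of 0.0248 for median-of-ratios scaling.

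KLF2, the flow-responsive factor, was at 0.603 and 0.387 FPKM with miR-NC against 0.248 and 0.315 FPKM with miR-187. The groups did not overlap in FPKM and the means, 0.495 and 0.282 FPKM, were 1.76-fold apart, but in percentile they did overlap, at 49.8 and 41.5 with miR-NC against 38.6 and 41.7 with miR-187. Of 17 other KLF genes 2 were tested and neither was called. KLF10, a factor induced by TGF-β, was at 4.35 and 4.92 FPKM with miR-NC against 4.01 and 2.999 FPKM with miR-187 (log2 fold change -0.33, limma adjusted p = 0.297), with the sign turned to 0.08 by median-of-ratios scaling and to 0.11 by quantile normalization. KLF6 was at 14.4 and 16.2 FPKM with miR-NC against 17.5 and 16.3 FPKM with miR-187 (log2 fold change 0.14, limma adjusted p = 0.558), and with median-of-ratios scaling it was called higher (0.63, adjusted p = 0.0330). Of the 6 genes of the ERK5 and MEF2 route that induces KLF2, 3 were tested and none was called.

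Other transcription factors of endothelium were likewise mostly low. Of 18 on the list 12 were below 1 FPKM in all libraries and 5 were tested, of which 1 fell and 4 did not pass, with a median log2 fold change of -0.48 against -0.39 for all tested genes. The gene that fell was HHEX, a homeobox factor of early endothelium, at 2.44 and 3.18 FPKM with miR-NC against 1.16 and 1.36 FPKM with miR-187 (log2 fold change -0.75, limma adjusted p = 0.0333). That call was lost with median-of-ratios scaling (adjusted p = 0.175) and when miR-NC replicate 2 (adjusted p = 0.147) or either miR-187 library (0.212 and 0.142) was left out.

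Several genes known to be controlled by these factors fell as well, 3 others being listed at 0 in every library. Of 22 on the list 21 were analysed here and 13 were tested, of which 8 fell, 0 rose and 5 did not pass, with a median log2 fold change of -0.63, where 27.3% of all tested genes were called lower and their median was -0.39. With median-of-ratios scaling 3 of the 13 were called lower and with quantile normalization 4. Of the 8 that fell, ROBO4 and THBD passed the filter only through the miR-NC group, where 49.2% of such genes were called lower, and both calls were lost under either of those scalings (adjusted p = 0.0600 and 0.0642, then 0.0875 and 0.0814) and without miR-187 replicate 1 (0.0514 and 0.0676). The list shares several genes with the endothelial markers. ESAM, a junction molecule, was at 105 and 124 FPKM with miR-NC against 56.1 and 55.6 FPKM with miR-187 (log2 fold change -1.02, limma adjusted p = 0.000337). NOS3, the endothelial nitric oxide synthase that KLF2 induces, was at 6.71 and 7.40 FPKM and then 2.60 and 2.19 FPKM (-1.25, limma adjusted p = 0.00290).

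ICAM2, an adhesion molecule that ERG controls, showed the effect of scaling. It was at 826 and 820 FPKM with miR-NC against 614 and 575 FPKM with miR-187 (log2 fold change -0.47, limma adjusted p = 0.00312), and its sign turned to 0.05 with median-of-ratios scaling. With quantile normalization it was still called lower (-0.31, limma adjusted p = 0.0479). When scaled outside the 100 most abundant genes it was lower but not called (-0.20, limma adjusted p = 0.170). CDH5, named after its values were seen, is the junction cadherin that ERG sustains. It was at 9.00 and 12.3 FPKM and then 4.45 and 3.37 FPKM (-1.24, limma adjusted p = 0.00320). Whether the levels of the factors bear on those of the targets was not tested.

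The 10 factors together summed to 31.2 and 34.8 FPKM with miR-NC against 16.7 and 17.4 FPKM with miR-187. NR2F2 made up 78.7 and 71.4% of that sum with miR-NC, against 78.3 and 76.8% with miR-187, so the sum follows NR2F2 and says little of the others. In bulk RNA fewer cells of a type and less RNA per cell cannot be told apart.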

How the data were processed

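The authors deposited one FPKM value per gene and library for 4 EA.hy926 libraries. The submitters' processing notes name HISAT2, StringTie, DESeq2 and the build hg19. Versions and the strand setting are not given in the sources used here. FPKM falls for most genes when abundant transcripts take a larger share of a library. Near-identical and overlapping genes may share reads. Groups and replicate numbers came from the titles. Whether replicates were separate cultures is not stated, so the p-values cover the spread of these 4 libraries alone, which may be technical.

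Copies of pseudoautosomal genes on chromosome Y (49) were left out of 62492 identifiers, and 40640 of those kept had a symbol. Genes reaching 1 FPKM in 2 or more libraries were fitted as log2(FPKM + 1) in limma 3.58.1 (R 4.3.3) with a variance trend on intensity. Tests were two-sided, and p was adjusted by Benjamini-Hochberg over 8196 genes with a threshold of 0.05. The fit had 2 residual and 10.9 prior degrees of freedom and was tested on simulated data. Alternatives were other pseudocounts, filters and scalings, no trend, a replicate block and leaving out each library. Python 3.11.15, pandas 2.3.3, numpy 2.4.6 and matplotlib 3.10.9 did the rest.

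All 10 members are named, with up to 3 tested genes of each other list by adjusted p and antisense partners. Other genes whose results are given were chosen after their values were seen, though only CDH5 is marked so above. The members and lists were chosen with earlier results of these data known. Seed matches came from GENCODE 29 transcripts and RefSeq miRNAs (GRCh38), and no coordinate was converted from hg19.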

Additional observations from a re-analysis of the deposited data

How the results depend on the processing

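The count of members called lower was 2 in the fit as reported. It was 0 with no filter, where no gene was called higher or lower among 25001 (4189 had an unadjusted p under 0.05 in limma), and 1 with at least 1 FPKM in all 4 libraries, with median-of-ratios scaling (over genes above 0 in every library or over tested genes), with quantile normalization, and without miR-NC replicate 1 or miR-NC replicate 2, with a range of 1 to 2 over the libraries left out. It was 2 under the other alternatives. No member was called higher under any alternative run. Over all genes the 2358 calls (122 higher, 2236 lower) became 612 (362 and 250) with median-of-ratios scaling, 686 (383 and 303) when it was computed over tested genes, an alternative chosen after seeing the data, 612 (293 and 319) with quantile normalization and 986 (245 and 741) when scaled outside the 100 most abundant genes. With no intensity trend 48 were higher. With each library left out in turn, calls ranged from 894 to 2838, with 72 to 119 higher and 822 to 2719 lower. An arm with 1 library was then assumed to vary like the other group.

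With median-of-ratios scaling over tested genes NR2F2 had a log2 fold change of -0.39 (limma adjusted p = 0.107). Signs turned for ICAM2 with median-of-ratios scaling (0.0494, and 0.0192 over tested genes), for NR2F2-AS1 with it (0.0633 and 0.0438) and with quantile normalization (0.111), for KLF10 with the same 3 scalings (0.0848, 0.0609 and 0.114), and for KRT18 with quantile normalization (-0.0818). The cause was not tested, and the sign of KRT7 under the alternatives is not given here.

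The labels do not say that replicate numbers pair the libraries, and deviations of same-numbered libraries correlated at -0.06. A replicate block gave 2633 calls (142 higher, 2491 lower) and 2 members lower, with limma adjusted p of 9.43e-05 for FLI1 and 0.000571 for NR2F2. With unknown depth, the counting error of values well below 1 FPKM cannot be given here, and differences among the 7 untested members cannot be judged.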
